A study of Homo sapiens with 5 samples.

Results

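Rb binding at the promoters of the numbered zinc finger genes (ZNF genes) of chromosome 19 was examined in ZR-75-1 cells. The members were the protein-coding genes of the GENCODE 44 annotation of GRCh38 that lie on chromosome 19 and are named ZNF followed by a number, with a letter suffix allowed. The rule found 246 genes among 19970 protein-coding genes of chromosomes 1 to 22 and X. 3 read-through genes that join a ZNF gene to a neighbour were left out, and the other 1227 coding genes of chromosome 19 and 262 ZNF genes of other chromosomes served for comparison. A member was called bound in a library if a peak of that library overlapped the window from 2000 bp upstream to 500 bp downstream of any of its transcription start sites (TSSs). The choice of members used gene names and positions only.

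ZR-75-1 is an established line of luminal breast cancer cells. Its parental cells received DMSO, or the CDK4/6 inhibitor abemaciclib at 500 nM, over 4 days. CUT&RUN uses an antibody to bring a nuclease to a chromatin protein and sequences the DNA fragments that it releases, here for untagged Rb. There were 2 Rb libraries per treatment and 1 library made with IgG2a, an antibody control without a target, from DMSO-treated cells. By the study's description the replicates were separate cultures with separate profiling reactions. The peak lists hold no expression values, so the identity of the line could not be checked against marker genes. In bulk cells, Rb at a promoter in more cells and more Rb at that promoter in each cell cannot be told apart.

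The C2H2 zinc finger is a small protein fold that reads DNA bases, and the ZNF genes of chromosome 19 encode long rows of such fingers. Most of these proteins also carry a KRAB domain, which recruits TRIM28 and, through it, the histone methyltransferase SETDB1 and HP1 proteins to silence chromatin, often at transposable elements. The genes arose largely by tandem duplication and therefore lie in clusters along the chromosome. Rb, the retinoblastoma protein, is held on promoters mainly through E2F factors, and phosphorylation by cyclin-dependent kinases releases it.

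MACS2 peaks numbered 1438 and 2582 for Rb in DMSO, 13960 and 12234 for Rb in abemaciclib and 589 for IgG2a, of which 124, 193, 1087, 933 and 1 lay on chromosome 19. The background level that the peak caller used most often, solved from the fold and p-value of the peaks, was 0.65 and 0.68 in DMSO, 0.66 and 0.52 in abemaciclib and 0.53 in IgG2a. This level is set by the caller, for Rb against the IgG control, and does not measure the depth of a library, which is unknown here.

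The 250 bases upstream of the RefSeq start site (RefSeq, GRCh38.p14) are shown for 5 members, chosen to set promoters with peaks in every Rb library or in abemaciclib only beside promoters without a peak. ZNF837 (chr19:58381031-58381280, minus strand) and ZNF749 (chr19:57435075-57435324, plus strand) had peaks in every Rb library. ZNF846 (chr19:9768739-9768988, minus strand) had peaks in both abemaciclib libraries only, and ZNF91 (chr19:23395472-23395721, minus strand) and ZNF154 (chr19:57709205-57709454, minus strand) had none. These windows hold no annotated exon. Capitals mark the letters of an E2F site (TTCCCGC, or as further forms TTCGCGC, or else TTGGCGC, or finally TTGCCGC), an NFY site (CCAAT) or an ETS site (CCGGAAG), on either strand, and the sequences read 5′ to 3′ on the strand of the gene.
ZNF837: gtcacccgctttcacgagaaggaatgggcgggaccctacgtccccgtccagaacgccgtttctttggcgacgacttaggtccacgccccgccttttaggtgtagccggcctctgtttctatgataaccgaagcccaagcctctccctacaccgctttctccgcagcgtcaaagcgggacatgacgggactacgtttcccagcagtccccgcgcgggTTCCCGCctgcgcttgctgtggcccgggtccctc
ZNF749: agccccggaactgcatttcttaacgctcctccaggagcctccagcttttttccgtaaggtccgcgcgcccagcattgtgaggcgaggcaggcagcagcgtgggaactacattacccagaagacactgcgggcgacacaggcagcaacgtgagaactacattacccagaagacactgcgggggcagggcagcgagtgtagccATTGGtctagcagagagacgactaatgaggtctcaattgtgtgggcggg
ZNF846: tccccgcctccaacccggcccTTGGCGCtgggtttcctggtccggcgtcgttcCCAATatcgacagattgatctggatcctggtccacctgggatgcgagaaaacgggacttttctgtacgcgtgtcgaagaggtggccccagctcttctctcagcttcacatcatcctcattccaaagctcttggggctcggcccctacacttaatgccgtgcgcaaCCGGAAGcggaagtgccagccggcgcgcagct
ZNF91: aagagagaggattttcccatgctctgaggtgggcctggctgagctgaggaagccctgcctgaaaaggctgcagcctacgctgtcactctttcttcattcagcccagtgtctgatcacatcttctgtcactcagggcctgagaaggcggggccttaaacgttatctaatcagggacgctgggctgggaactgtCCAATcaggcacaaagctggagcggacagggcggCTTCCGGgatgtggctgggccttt
ZNF154: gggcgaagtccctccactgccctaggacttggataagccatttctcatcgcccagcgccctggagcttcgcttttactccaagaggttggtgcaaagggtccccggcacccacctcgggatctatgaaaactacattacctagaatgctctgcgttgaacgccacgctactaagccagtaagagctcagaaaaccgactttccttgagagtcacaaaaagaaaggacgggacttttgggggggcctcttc

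The CpG dinucleotides in these windows numbered 25 in ZNF837, 15 in ZNF749, 20 in ZNF846, 11 in ZNF154 and 7 in ZNF91. ZNF837 held 1 E2F site, ZNF846 held 1 site of each kind, and ZNF154 held none of them. ZNF91 held an NFY and an ETS site although it had no peak.

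The effect of CDK4/6 inhibition on Rb at these genes was addressed by counting bound members. Of 246 members, 11 (4.47%) and 15 (6.10%) were bound in the DMSO libraries. In the abemaciclib libraries 148 (60.2%) and 119 (48.4%) were bound, replicate 1 first in each pair. No member had an IgG2a peak (0 of 246, Wilson upper bound 1.54%), beside 6 of 19970 coding genes (0.03%), so the members do not stand apart in this. The abemaciclib libraries did not overlap the DMSO libraries. The shares of all coding genes bound in the same libraries were 7.86%, 12.4%, 58% and 53.9%, so members lay below this background in both DMSO libraries and on both sides of it in abemaciclib. Bound members averaged 133.5 ± 20.5 in abemaciclib and 13.0 ± 2.83 in DMSO (SD, n = 2 libraries per treatment). The ratio of these means was 10.3. The difference was 120.5 members (exact permutation test over libraries, two-sided, p = 0.333, the smallest p that 2 against 2 allows). The same ratio was 4.43 for the other coding genes of chromosome 19 and 5.51 for all coding genes, and these ratios were not tested against each other. When each list was cut to its strongest 1438 peaks, the size of the smallest list, 11 and 9 members were bound in DMSO and 16 and 14 in abemaciclib, a difference of 5, and 1 member was left in the abemaciclib-only pattern described next.

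**Figure D1:**
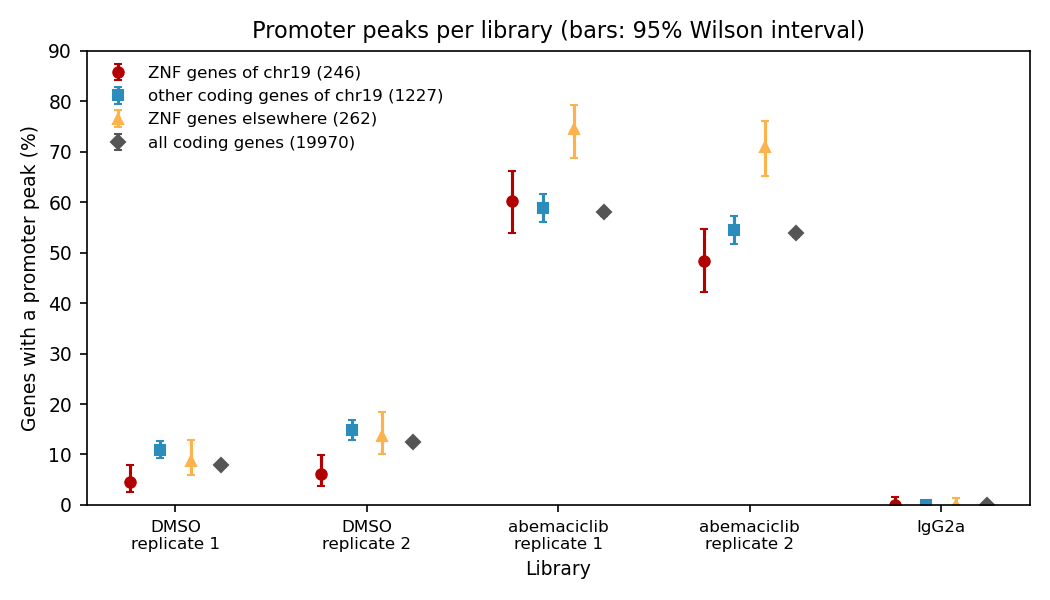
Share of genes with a promoter peak (y axis, percent) in each of the 5 libraries (x axis) for 4 sets of genes. Points are shares and bars are 95% Wilson intervals, which cover counting error only. ZNF genes of chromosome 19 lie at 4.47% and 6.10% in DMSO and at 60.2% and 48.4% in abemaciclib.

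The pattern over the 4 Rb libraries was then recorded for each member. The abemaciclib-only pattern, peaks in both abemaciclib replicates without any in DMSO, was found for 96 members (39.0%, Wilson 95% interval 33.1 to 45.2), beside 38.9% of all coding genes and 37.4% (34.7 to 40.2) of the other coding genes of chromosome 19. The difference from the latter was 1.62 percentage points (95% interval -4.87 to 8.38), so no difference in this share was detectable at this precision. Without abemaciclib replicate 2 it was 9.49 points. 6 members (2.44%, 1.12 to 5.22) were bound in all 4 Rb libraries, beside 6.41% of all coding genes and 9.13% (7.64 to 10.9) of the other coding genes of the chromosome. This number was 15 without DMSO replicate 1 and 11 without DMSO replicate 2. By construction these are the members bound in the DMSO library that remained. 14 members (5.69%) were bound in both abemaciclib libraries and 1 DMSO library, beside 7.39% of all coding genes. A peak in 1 abemaciclib library only was found for 35 members (14.2%, 10.4 to 19.1), beside 6.53% of all coding genes and 5.87% (4.69 to 7.33) of the rest of the chromosome. The remaining 95 members (38.6%, 32.8 to 44.8) had no Rb peak, beside 40.7% of all coding genes. No member had a DMSO peak without a peak in both abemaciclib libraries. This was rare in all coding genes too, so members do not stand apart in it. Of 19970 coding genes, 7 had a DMSO peak with a peak in 1 abemaciclib library, and 9 had a DMSO peak without any in abemaciclib. Intervals for shares count genes as if independent and cover counting error only.

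The shares with DMSO peaks and the match between the abemaciclib replicates were then set beside those of the rest of the chromosome, without a test. Any DMSO peak was found at 20 members (8.13%, 5.32 to 12.2) and at 16.5% (14.5 to 18.6) of the other coding genes of chromosome 19. The 109 of these that lie inside the spans of the ZNF clusters described further on had 8.26% (4.40 to 15.0), near the member share. Of these neighbours 47, but only 7 of 246 members, lay in the lowest CpG stratum described further on, without a DMSO peak there. In the middle and upper strata the neighbours had 14.3% of 42 and 15% of 20, against 7.59% of 158 and 9.88% of 81 members. Window sharing with another coding gene was found for 2 of the 3 neighbours bound in all 4 Rb libraries. It was found for 4 of the 6 bound in both abemaciclib libraries and 1 DMSO library. The part of CpG and sharing in the match was not tested. Of the 116 members bound in both abemaciclib libraries, 17.2% (11.4 to 25.1) also had a DMSO peak, against 30.3% (27.0 to 34.0) of such genes elsewhere on the chromosome and 23.2% (17.6 to 29.9) of such ZNF genes on other chromosomes. Of the 151 members bound in any abemaciclib library, 76.8% were bound in both, against 89.9% of the other coding genes of the chromosome. 32 of the 35 members with a single abemaciclib peak had it in replicate 1, which has the longer list, and the part of the length of the lists in this was not tested. ZNF genes of other chromosomes had 51.9% (45.9 to 57.9) in the abemaciclib-only pattern and 22.1% (17.5 to 27.5) without a peak.

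The 6 members bound in every Rb library were ZNF524, ZNF837, ZNF749, ZNF324B, ZNF558 and ZNF324. ZNF524, which encodes a protein known to bind telomeric repeats, lies at chr19:55600022-55603138 on the plus strand. Its best promoter peaks had a fold enrichment over local background of 15.7 and 20.5 in DMSO and of 121.1 and 119.5 in abemaciclib. They ranked 54th of 1438 and 53rd of 2582 by p-value in DMSO and 42nd and 22nd in abemaciclib, so this promoter stood near the top of every list. The peak in abemaciclib replicate 1 covered 1890 bp and included the start of FIZ1, a neighbouring coding gene that reads in the other direction, so the 2 promoters cannot be told apart here.

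ZNF837 (chr19:58367618-58381030, minus strand), whose upstream bases are printed above, shared its window with no other coding gene. Its fold enrichment was 10.2 and 12.3 in DMSO and 111.7 and 90.1 in abemaciclib, with summits between 44 and 164 bp downstream of a TSS. ZNF749 (chr19:57435325-57447101, plus strand) had folds of 8.38 and 8.82 in DMSO and of 60.8 and 48.6 in abemaciclib. In both genes the summits of all 4 libraries lay within 200 bp of a TSS.

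ZNF324B and ZNF324, which are neighbours near the end of the long arm, had weaker DMSO peaks. ZNF324B had folds of 3.80 and 5.15 in DMSO and of 37.8 and 34.0 in abemaciclib, and ZNF324 had 4.21 and 5.29 in DMSO and 42.5 and 33.5 in abemaciclib. In DMSO replicate 1 their peaks ranked 1363rd and 1412th of 1438, just inside the threshold of that list. At a q-value of at most 0.01 both genes lost this peak, and 4 members remained bound in all 4 libraries. ZNF558 had folds of 6.22 and 6.24 in DMSO and of 38.9 and 37.1 in abemaciclib, with summits between -473 and -360 bp of its nearest TSS (negative is upstream), in a window shared with MBD3L1.

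14 further members had a DMSO peak in 1 library, 5 of them in replicate 1 and 9 in replicate 2. ZNF180, whose DMSO peak ranked 689th of 2582, had folds of 7.07 (DMSO replicate 2) and 31.7 and 23.3 (abemaciclib). ZNF584 had a fold of 7.44 in DMSO replicate 2 at an upstream TSS, where the abemaciclib folds were 25.6 and 26.8, whereas its best abemaciclib peaks, with folds of 49.5 and 33.5, lay at another TSS of the gene. ZNF345 and ZNF790 are read in opposite directions from a common region, and the same peaks counted for both, with folds of 7.02 (DMSO replicate 2) and 38.3 and 45.4 (abemaciclib).

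ZNF254 had folds of 6.38 in DMSO replicate 1 and of 40.6 and 33.7 in abemaciclib. ZNF582, a gene often methylated in cancers, had 5.38 in DMSO replicate 2 and 19.1 and 21.0 in abemaciclib. ZNF473, which encodes a factor of histone pre-mRNA processing, had 4.70 in DMSO replicate 2 and 21.7 and 19.7 in abemaciclib, in a window shared with VRK3. ZNF432 and ZNF841 shared a DMSO peak with a fold of 4.24 in replicate 1. These 3 genes were singled out after their values were seen. The DMSO peaks at member promoters numbered 25 in all once shared ones were counted once, with folds from 3.54 to 20.5. All 25 lay wholly inside a peak of each abemaciclib library, and the same share over all coding genes is not given here.

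The 96 abemaciclib-only members were headed, by the worse of their 2 ranks, by ZNF846, ZNF575, ZNF808, ZNF567, ZNF260, ZNF57, ZNF331, ZNF77, ZNF45 and ZNF653. ZNF846 had folds of 42.9 and 36.2 in abemaciclib replicates 1 and 2, at an alternative TSS upstream of the one whose sequence is printed above, where both libraries also had a peak. ZNF575 followed with 28.9 and 35.3, ZNF808 with 30.03 and 23.5, and ZNF567 with 30.7 and 21.2.

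ZNF260 had folds of 26.1 and 21.0, ZNF57 of 29.0 and 27.0 and ZNF77 of 28.5 and 21.9. ZNF331, which lies in an imprinted region and is often methylated in tumours, had 30.1 and 23.3 at 1 of its upstream TSSs. ZNF45 had 27.8 and 23.7, and ZNF653, whose window reaches that of ECSIT, had 29.6 and 21.7. Across all 96 the fold ran from 4.06 to 42.9 in replicate 1 and from 3.69 to 36.2 in replicate 2, with medians of 10.5 and 9.58. The strongest members of this class thus reached the level of members that also had a DMSO peak, and the weakest were near the threshold.

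Peaks at member promoters ranked lower in the abemaciclib lists than those of the other coding genes of the chromosome, without a test. The median rank of the best peak was 56.0% of the list in replicate 1 and 45.3% in replicate 2, where 0% is the strongest, against 31.4% and 34.6% for the other coding genes of the chromosome and 38.1% and 39.99% for all coding genes. The median fold was 8.83 and 11.2 for members and 16.5 and 14.5 for the rest of the chromosome. Member peaks were also narrower, with median widths of 611 and 636 bp against 930 and 888 bp. The other coding genes inside the cluster spans had median ranks of 45.2% and 54.1%, folds of 11.6 and 9.44 and widths of 611 and 627.5 bp. ZNF genes of other chromosomes had ranks of 40.1% and 46.0%, folds of 13.0 and 10.7 and widths of 854 and 746 bp. Low rank and narrow width were thus not particular to members. Within the abemaciclib-only class the median rank was 50.6% and 53.8% for members and 39.9% and 45.3% for the other genes of the chromosome, so members stood lower in both replicates, which was not tested. Members with a peak in replicate 1 alone had a median rank of 81.1% there, near the 78.9% of such genes elsewhere on the chromosome and 81.7% of all such coding genes. The summit lay within 500 bp of a TSS for 96.6% and 99.2% of bound members in abemaciclib replicates 1 and 2, against 84.8% and 84.3% for the rest of the chromosome.

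**Figure D2:**
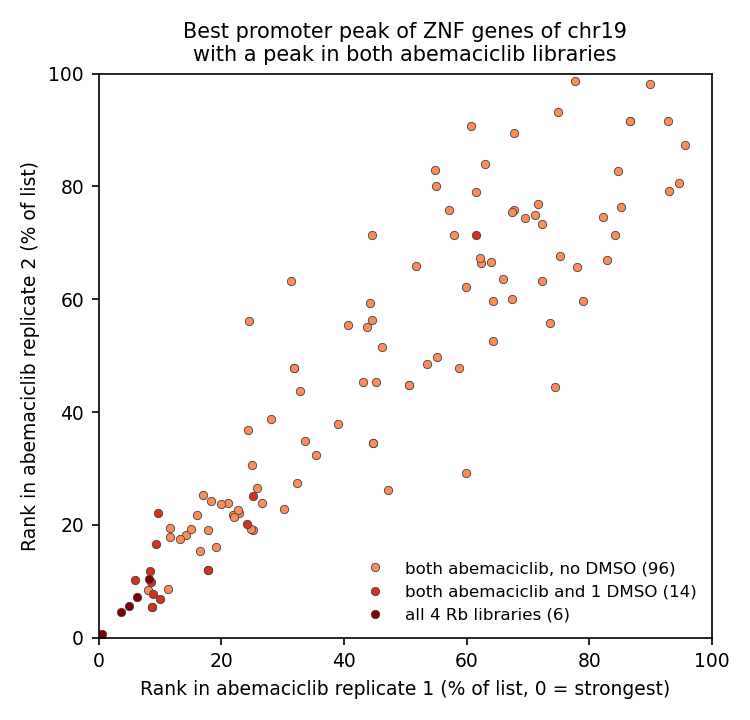
Rank of the best promoter peak in abemaciclib replicate 1 (x axis) and replicate 2 (y axis), each as a percent of its list with 0 the strongest, for the 116 ZNF genes of chromosome 19 with a peak in both. Points are genes coloured by the presence of DMSO peaks. The 6 genes bound in all 4 libraries reach at most 8.16% in replicate 1 and 10.4% in replicate 2, while abemaciclib-only genes reach 95.6% and 98.6%.

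Promoter base composition was set beside these counts. The observed/expected CpG ratio of the 1000 bp around the canonical TSS had a median of 0.71 in members and of 0.65 in the other coding genes of the chromosome, and few members were CpG-poor. In the stratum at or above 0.75, 43 of 81 members (53.1%) were bound in both abemaciclib libraries, against 83.2% of 411 other coding genes of the chromosome, 78.6% of 140 ZNF genes elsewhere and 76.7% of all coding genes. Between 0.4 and 0.75 the shares were 44.9% of 158 members, 57.5% of 449 genes and 62.5% of 104 ZNF genes elsewhere. Below 0.4, 2 of 7 members were bound, too few to describe. A smaller share of CpG-rich member promoters than of other CpG-rich promoters was thus bound in these lists, and the difference was not tested. Among genes whose window is shared with no other coding gene, the shares in the upper stratum were 50% of 58 members and 81.2% of 239 others. With the canonical TSS alone they were 48.1% and 81.3%. In the middle stratum, 38.3% of 120 members and 43.0% of 249 others with an unshared window were bound in both. With the canonical TSS alone these were 42.4% and 52.3%. The middle stratum thus showed a smaller gap under both settings than over all windows.

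**Figure D3:**
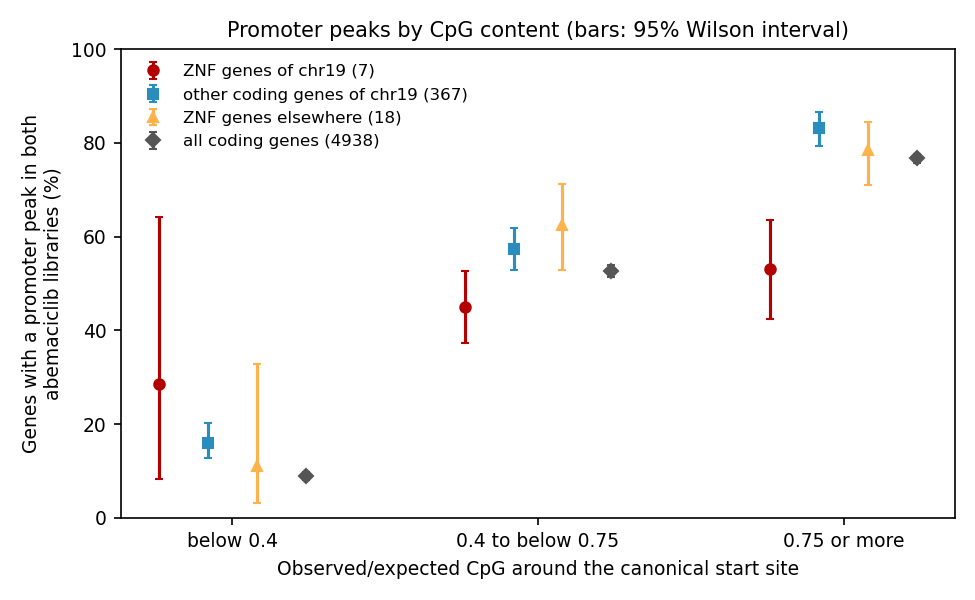
Share of genes with a promoter peak in both abemaciclib libraries (y axis, percent) by observed/expected CpG ratio around the canonical TSS (x axis, 3 strata) for 4 sets of genes. Bars are 95% Wilson intervals for counting error only. In the upper stratum 53.1% of ZNF genes of chromosome 19 and 83.2% of the other coding genes of the chromosome had both peaks.

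A KRAB-like sequence pattern was sought in the first 250 residues translated from the canonical coding sequence of each member. 214 members held it and 32 did not. Of those with the pattern, 93 (43.5%, 37.0 to 50.2) were bound in both abemaciclib libraries, 14 (6.54%) had a DMSO peak and 41.6% had no peak. Of those without it, 23 (71.9%, 54.6 to 84.4) were bound in both, 6 (18.8%) had a DMSO peak and 18.8% had no peak. The median CpG ratios were 0.72 without the pattern and 0.71 with it. Among members with a window of their own the shares bound in both were 39.6% of 164 and 55% of 20, and among members with a shared window 56% of 50 and 12 of 12. Shared windows thus moved with both shares, and their part in the difference was not tested. The number of C2H2 fingers ran from 1 to 36 with a median of 12, and members with fewer than 12 fingers and with 12 or more were bound in both abemaciclib libraries in 47.2% and 47.1% of cases.

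**Figure D4:**
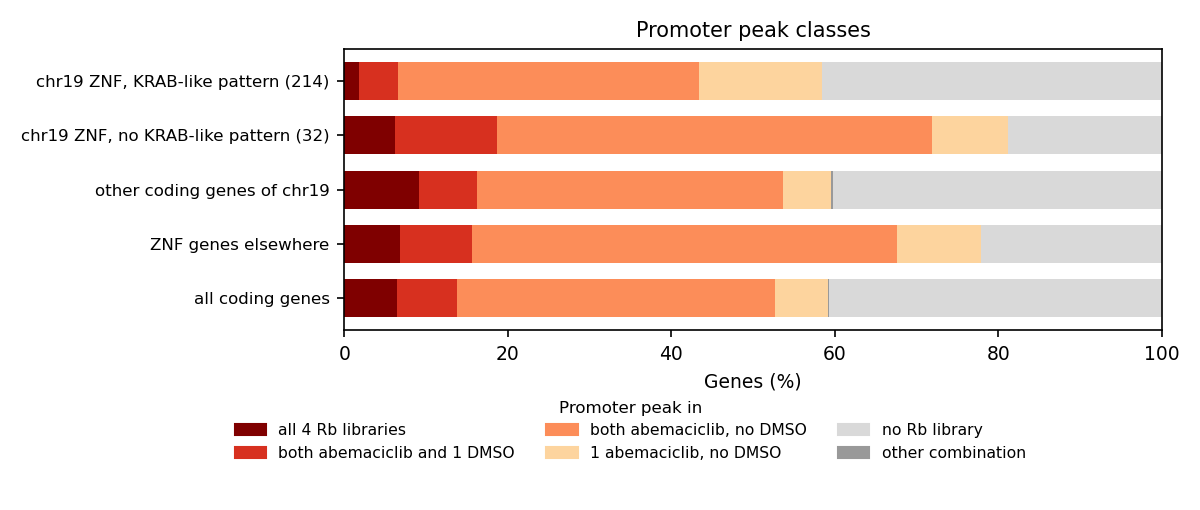
Stacked shares of genes (x axis, percent) by the libraries with a promoter peak, for ZNF genes of chromosome 19 with and without a KRAB-like pattern and for 3 other sets of genes. Genes without a peak make up 41.6% of the 214 members with the pattern and 18.8% of the 32 without it.

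Windows shared between genes bear on these counts. 62 members had a window that overlapped that of another coding gene, and 64.5% of them were bound in both abemaciclib libraries and 16.1% in a DMSO library, against 41.3% and 5.43% of the 184 members with a window of their own. The peaks at member promoters formed 157 separate regions, 9 of which touched 2 members each. Among these were the regions of ZNF146 and ZNF565, of ZNF383 and ZNF585B and of ZNF580 and ZNF581, each bound in both abemaciclib libraries. 4 members had a copy of at least 30% of their start region elsewhere in the genome at 95% identity or more. ZNF28 and ZNF468, which share a region, were both bound in abemaciclib only, whereas ZNF347 and ZNF587 had no promoter peak.

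Along the chromosome, 235 members fell into 11 clusters, defined as runs of at least 3 members whose neighbours start within 500 kb of each other, and 11 members lay outside them. The share bound in both abemaciclib libraries ran from 27.0% to 68.8% between clusters. The lowest share was in the cluster from ZNF101 to ZNF254 (chr19:19668796-24129968), where 10 of 37 members were bound in both and 20 had no peak. All 37 carried the KRAB-like pattern and their median CpG ratio was 0.53, the lowest of the 11 clusters. ZNF91 and ZNF93, which encode repressors of SVA and L1 transposable elements, belong to this cluster and had no peak in any library, and their CpG ratios were 0.51 and 0.57. The longest run of neighbours without a peak also lay here, 8 members from ZNF676 to ZNF730. ZNF254 at the end of the cluster was its best placed member and the only one with a DMSO peak.

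The highest share was in the cluster from ZNF628 to ZNF835 (chr19:55476617-56671783), with 11 of 16 members bound in both abemaciclib libraries, 4 of them also in DMSO. Only 6 of its 16 members carried the KRAB-like pattern. It held the longest run of bound neighbours, 9 members from ZNF524 to ZNF583, among them ZNF865, ZNF784, ZNF580, ZNF581, ZNF787 and ZNF444. The largest cluster, from ZNF264 to ZNF446 (chr19:57191500-58481230) at the end of the long arm, held 43 members, 25 of them bound in both abemaciclib libraries, and 4 of the 6 members bound in every Rb library. Bound and unbound members were nevertheless mixed within it, with 13 members without a peak. It also held runs of 7 bound neighbours from ZNF329 to ZNF584 and of 6 from ZNF547 to ZNF419.

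In the cluster from ZNF175 to ZNF331, 21 of 39 members were bound in both abemaciclib libraries, and ZNF765 led it with folds of 37.7 and 38.2. The cluster from ZNF146 to ZNF573 had 13 of 26 bound in both and 8 in 1 library only, the largest number of such members in a cluster. These 8 rest on fewer peaks than genes. ZNF568 and ZNF829, ZNF569 and ZNF570, and ZNF540 and ZNF571 each counted the same peak of abemaciclib replicate 1. The cluster from ZNF101 to ZNF254 had 7 such members, without a shared peak. In the clusters from ZNF653 to ZNF490 and from ZNF575 to ZNF180, 14 of 25 and 13 of 23 members had no peak. The cluster from ZNF414 to ZNF846 had 5 of 13 bound in both, headed by ZNF558. The 3 smallest clusters, headed by ZNF57, ZNF302 and ZNF546, held 3 of 5, 2 of 5 and 1 of 3 such members, and ZNF302 and ZNF546 had folds of 7.52 and 9.91, and 6.01 and 4.496.

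**Figure D5:**
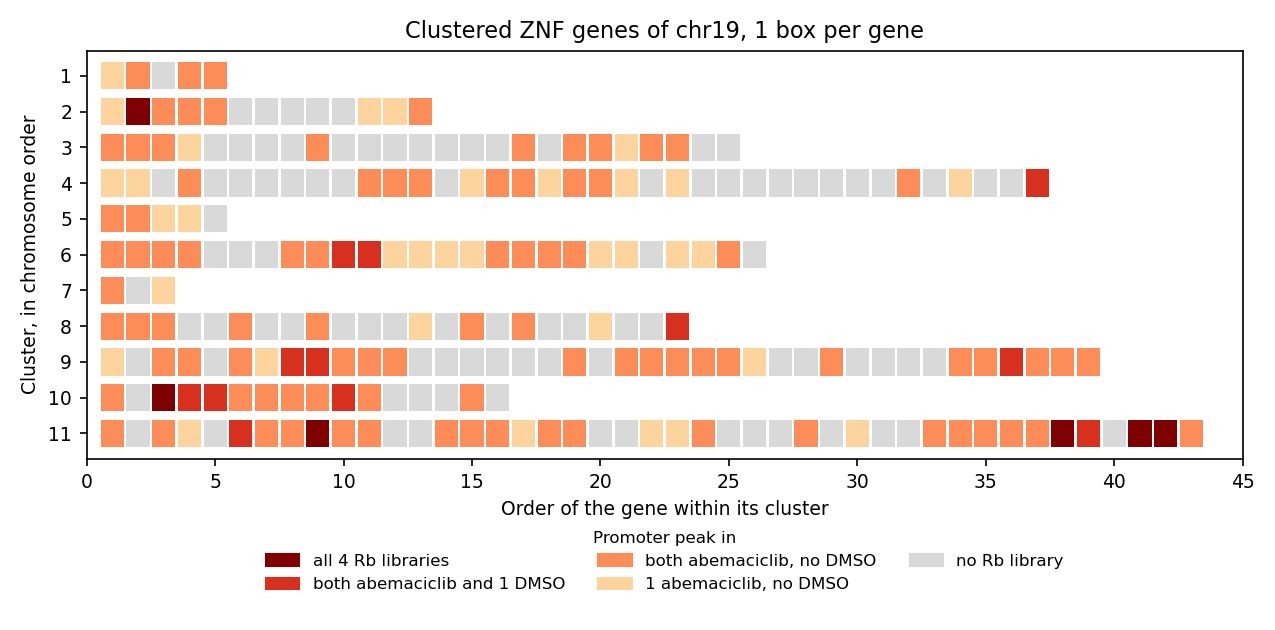
Each box is 1 of the 235 clustered ZNF genes, placed by its order within its cluster (x axis) and by cluster in chromosome order (y axis), and coloured by the libraries with a promoter peak. Cluster 4 holds 20 of 37 genes without a peak, and 4 of the 6 genes bound in all 4 Rb libraries lie in cluster 11.

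A list of 12 members with known roles or known methylation was read as well. Of these 12, 8 had no peak, beside 38.6% of all members and 40.7% of all coding genes: ZNF91, ZNF93, ZNF382, ZNF154, ZNF671, ZNF177, ZNF121 and ZNF426. ZNF154, ZNF671 and ZNF382, known to be methylated in tumours, had no peak. ZNF331 and ZNF582, also known for it, had peaks in both abemaciclib libraries. This grouping by methylation may not be complete for the list. ZNF274, which is known to bind the 3′ ends of other ZNF genes and to bring SETDB1 there, had folds of 12.1 and 19.1 in abemaciclib and no DMSO peak. ZNF224, a repressor known for its action on the aldolase A gene, had a fold of 5.44 in abemaciclib replicate 1 only.

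Rb peaks inside the genes were rare. Outside all promoter windows, a peak overlapped the body of 0 members in either DMSO library, beside 0.175% and 0.536% of all coding genes. In abemaciclib replicates 1 and 2 it was 4 and 5 members (1.63% and 2.03%). The shares were 8.15% and 6.28% of the other coding genes of the chromosome, 4.34% and 3.14% of all coding genes and 2.29% of ZNF genes elsewhere in each library. These shares depend on gene length. Members had 5 and 4 such peaks over a summed length of 7.84 Mb. All coding genes had 898 and 637 over 1376 Mb, and the other coding genes of the chromosome 112 and 86 over 29.1 Mb. The part of length in the shares was not tested. The last exon, which holds the finger codons in these genes, carried a peak in 1 member and 1 library, at ZNF296 with a fold of 3.21. In abemaciclib replicates 1 and 2 this was 0.407% and 0% of members, beside 0.606% and 0.456% of all coding genes. Last-exon peaks were thus rare in all genes and not only in members. Body peaks at ZNF57, ZNF709 and ZNF296 recurred in both abemaciclib libraries, with folds of 4.83 and 5.26, of 9.06 and 7.23 and of 4.72 and 3.92.

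The genes of the KRAB repression pathway were read from a list of 34. 29 of them (85.3%) were bound in both abemaciclib libraries, beside 52.7% of all coding genes, and 12 (35.3%) had a DMSO peak, beside 13.9% of all coding genes. Of the HP1 genes, CBX5 had folds of 8.64 and 12.1 in DMSO and of 108.7 and 112.4 in abemaciclib, CBX1 of 3.85 and 6.57 and of 29.6 and 24.4, and CBX3 of 6.17 in DMSO replicate 1 and of 29.8 and 33.2 in abemaciclib. SUMO2, which acts in sumoylation, and DNMT1 and HELLS, which act in DNA methylation, were also bound in every Rb library, with abemaciclib folds of 85.04 and 77.6, 60.3 and 43.2, and 33.7 and 25.7. TRIM28, the corepressor that KRAB domains bind, had no promoter peak, and SETDB1 had a fold of 5.95 in abemaciclib replicate 2 only. ATF7IP, the partner of SETDB1, had a fold of 5.25 in DMSO replicate 1 and of 71.8 and 71.3 in abemaciclib.

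The HUSH complex genes TASOR, PPHLN1 and MPHOSPH8, which silence transposons together with MORC2, were bound in abemaciclib only, with folds between 3.86 and 10.3. Of 18 zinc finger genes of chromosome 19 with other names, 10 (55.6%) were bound in both abemaciclib libraries, 3 of them with a DMSO peak, and 8 had no peak. The share bound in both was near the 52.7% of all coding genes. ZSCAN5A had folds of 39.3 and 32.9 in abemaciclib and ZBTB32 had 35.0 and 39.4, and each had a peak in 1 DMSO library. ZIM2 and ZIM3 had no peak, and PEG3, an imprinted gene, had folds of 10.4 and 11.2.

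Sequence motifs were counted in the 300-base RefSeq promoters, which could be matched for 216 members and 15321 coding genes. Each motif is a string of letters sought on both strands, and a match is a description, not a site. The ETS string CCGGAAG was found in 45.4% of member promoters, against 13.0% of the other coding promoters of the chromosome, 34.3% of ZNF promoters elsewhere and 14.4% of all coding promoters. It was present in 46.2% of members bound in both abemaciclib libraries and in 43.0% of members without a peak, but in 13 of the 18 members with a DMSO peak (72.2%). Only the RefSeq promoter of a gene was searched, whereas a peak at any of its TSSs counted, so a string need not lie at the peak. At ZNF254, ZNF432 and ZNF584, which hold the ETS string, the DMSO summit lay at -53631, -46763 and -7247 bp from the canonical TSS. The NFY string CCAAT was found in 53.7% of members and 36.6% of all coding promoters, and in 47.1% of bound and 62.0% of unbound members. The NFY share was thus lower among bound members, and the ETS share differed between the DMSO-bound members and the others, neither of which was tested.

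An E2F string was found in 21.8% of member promoters and 17.4% of all coding promoters. Its share was 29.8% (31 of 104) in members bound in both abemaciclib libraries, 33.3% (6 of 18) in those with a DMSO peak, 9.09% (3 of 33) in those with a single abemaciclib peak and 16.5% (13 of 79) in those without a peak. In all coding genes the shares were 37.1% where all 4 Rb libraries had a peak, 20.6% in the abemaciclib-only class and 8.80% without a peak. The CHR string TTTGAA was found in 10.2% of members and 12.1% of all coding promoters. Among the printed sequences, ZNF837 and ZNF846 hold an E2F string and ZNF749, also bound, does not.

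The values nearest to the thresholds of the rule were as follows. The smallest overlap of a peak with a member window was 186 bp, at ZNF799 in abemaciclib replicate 2. The nearest peak outside a window lay 146 bp away, at ZNF587 in abemaciclib replicate 2, and the next 2045 bp away, at ZNF681 in replicate 1. The weakest peaks counted had a −log10 q of 1.36, at ZNF540, ZNF571 and ZNF780A in abemaciclib replicate 1.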

How the data were processed

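Rb was profiled by CUT&RUN in 4 libraries and IgG2a in 1. Per the submitters' processing notes and the study's methods, the authors trimmed reads with BBDuk, aligned them to hg38 with Bowtie2 2.3.4.1 and ran MACS2 2.2.7.1 per library, without pooling replicates, against a matched IgG control. DiffBind and deepTools 3.5.0 are also named there. The deposited peak lists give, per peak, a fold enrichment (a ratio of summit pileup to local background), a −log10 p-value and a −log10 q-value, with a q-value of at most 0.05. The deposited score column was not used. The lists hold no read counts, and peak fold depends on library depth, so folds are given side by side. No ratio of folds between libraries is reported here. The caller's background level was solved from the fold and the p-value of peaks with a −log10 p of at most 40, to within 0.01 of a whole pileup.

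Promoter windows came from GENCODE 44. CpG ratios used 1000 bp around the canonical TSS, with strata cut at 0.4 and 0.75. Fingers and the KRAB-like pattern, sought at either end of the KRAB A box in the first 250 residues, were read in translated GENCODE coding sequences in place of the RefSeq proteins first planned; the pattern was widened after it missed known KRAB proteins. A near-identical copy had at least 95% identity over 30% of 1000 bp by blastn 2.17.0, a setting loosened after a stricter one found none. Motifs were counted in RefSeq promoters from 250 bases before to 50 after the start. Python 3.11.15, numpy 2.4.6, scipy 1.17.1, matplotlib 3.10.9, pysam 0.24.0 and samtools 1.23.1 were used. Overlap counting was tested on simulated data.

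Members named were those bound in all 4 Rb libraries, the 10 best ranked abemaciclib-only members, up to 6 with a peak in 1 DMSO library, the best ranked of each cluster and a list of 12. The values of 1 gene of the KRAB repression list are not reported here. The members and lists were chosen with earlier results of these data known. The test was an exact two-sided permutation over libraries, without a replicate block. Alternatives changed the window, TSS, q-value, number of peaks, overlap rule, IgG2a peaks, shared windows, copies, libraries, replicate block and cluster gap.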

Additional observations from a re-analysis of the deposited data

How the results depend on the processing

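The difference in bound members between abemaciclib and DMSO (120.5) kept its direction under all 14 alternatives, from 5 to 135, and no alternative could pass a threshold at this number of libraries. Leaving out 1 library at a time gave 106 to 135. With the strongest 1438 peaks of each list the abemaciclib-only number was 1 in place of 96, and 99 to 128 when 1 library was left out. The number bound in all 4 Rb libraries (6) ran from 6 to 15 when 1 library was left out, with 15 without DMSO replicate 1 and 11 without DMSO replicate 2. Leaving out a library can only keep or raise this number, by its construction. The difference in abemaciclib-only share from the rest of the chromosome (1.62 percentage points) ran from -0.186 to 9.49 when 1 library was left out, the highest without abemaciclib replicate 2, while a q-value limit of 1e-05 gave -4.08 and the strongest peaks gave -1.30. The causes were not tested. A gap of 200 kb gave 17 clusters in place of 11, by its construction, and 1 Mb gave 10. With the replicate block the difference was 120.5 (pair differences 137 and 104, exact sign-flip permutation p = 0.5, the smallest that 2 pairs allow). The labels do not say that the numbers pair the libraries. The number of peaks per list and 2 libraries per treatment limit these counts.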
